A study of Mus musculus with 8 samples.

Results

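The proteins of the mitochondrial ribosome were followed in the epididymal fat of obese mice. The members were all genes with a single annotated symbol that starts with Mrpl (named for the large subunit) or Mrps (named for the small subunit) followed by a number. There were 74 of them among 18820 genes tested, 46 with Mrpl names and 28 with Mrps names. Mrpl24, Mrpl43, Mrpl53 and Mrps6 were on probe sets annotated to more than 1 gene alone and were not members.

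All 8 arrays came from male C57BL/6 mice that had 2 weeks of low-fat diet (10% of energy from fat) and then 16 weeks of high-fat diet (45%). In the wild-type group (WT) were 4 arrays of mice bought from a supplier, and in the transgenic group (IL37TG) 4 arrays of mice that overexpress human IL37, an anti-inflammatory relative of interleukin-1. The sources used here give neither littermate controls nor the promoter of the transgene nor the number of founder lines, so the transgene and the source of the mice cannot be told apart. Levels were log2 expression values per probe set, and differences are IL37TG minus WT on that scale. Replicates carry numbers in the labels but no separate mice are named, so a p-value here covers the spread among these 8 arrays and no more. Adipoq (WT mean 12.17), Plin1 (12.28), Fabp4 (12.46) and Lep (12.58), which define fat cells, lay between percentiles 99.7 and 99.9 of gene means. Ucp1, which defines brown fat, lay at percentile 14.8. Other brown fat markers lay higher: Elovl3 at percentile 34.5, Dio2 at 40.0, Cidea at 40.6, Cox7a1 at 58.8 and Cox8b at 81.3.

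Mitochondria keep a small genome of their own, and nearly all the proteins it encodes are subunits of the respiratory chain. These are made inside the organelle by a separate ribosome, whose RNA comes from mitochondrial DNA and whose proteins are all encoded in the nucleus, made in the cytosol and imported. Some of those proteins have a counterpart in bacterial ribosomes, and others are found only in mitochondria. In fat cells the organelle supports fatty acid oxidation, the making of precursors for triglyceride and the export of adiponectin.

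Many nuclear genes for mitochondrial proteins have sites for the activator NRF1, for ETS factors such as GABP and for YY1 close to their start sites, so the promoters of the members were read first. Windows of 300 bases, from 250 before to 50 after the RefSeq start site (GRCm38.p6), were held for 65 of the 74 members. Both strands were searched for GCGCA and GCGC with any 1 base between them (NRF1), CCGGAAG (the ETS core) and AAGATGGC (YY1), and in no member window did matches of different motifs overlap. The NRF1 letters were in windows of 13 members (20.0%), the ETS letters in 24 (36.92%) and the YY1 letters in 12 (18.46%), where the shares over 14749 tested genes with a window were 7.95%, 13.68% and 3.82%. At least 1 of the motifs was found for 41 members (63.08%, against 22.54%). The median G and C content was 58.33% for windows of members and 57.67% for those of tested genes. Shown are the windows of 2 genes that passed the test below, Mrpl55 and Mrps15, which hold none of these letters, and of 3 genes with a low p that hold an ETS core and a YY1 match (Mrps18a), 2 ETS cores (Mrpl52) and an NRF1 match (Mrpl14). Capitals mark the matches.
Mrpl55 (chr11:59202236-59202535, plus strand): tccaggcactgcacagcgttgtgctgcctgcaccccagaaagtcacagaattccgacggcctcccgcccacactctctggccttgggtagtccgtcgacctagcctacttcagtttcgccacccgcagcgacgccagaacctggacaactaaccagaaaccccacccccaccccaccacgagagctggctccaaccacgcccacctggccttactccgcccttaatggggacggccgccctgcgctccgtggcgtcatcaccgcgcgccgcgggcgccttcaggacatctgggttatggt
Mrps15 (chr4:126046678-126046977, plus strand): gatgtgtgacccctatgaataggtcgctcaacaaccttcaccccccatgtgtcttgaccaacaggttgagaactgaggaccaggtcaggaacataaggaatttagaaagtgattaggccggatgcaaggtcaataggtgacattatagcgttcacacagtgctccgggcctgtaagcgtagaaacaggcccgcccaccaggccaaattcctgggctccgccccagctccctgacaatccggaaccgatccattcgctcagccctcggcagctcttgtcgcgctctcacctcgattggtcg
Mrps18a (chr17:46110754-46111053, plus strand): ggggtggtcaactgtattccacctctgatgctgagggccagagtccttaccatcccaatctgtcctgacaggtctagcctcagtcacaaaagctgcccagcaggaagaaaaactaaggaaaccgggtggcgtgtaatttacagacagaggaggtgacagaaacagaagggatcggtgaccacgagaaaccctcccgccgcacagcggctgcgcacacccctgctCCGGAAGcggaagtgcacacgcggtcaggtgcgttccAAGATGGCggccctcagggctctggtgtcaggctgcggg
Mrpl52 (chr14:54426659-54426958, plus strand): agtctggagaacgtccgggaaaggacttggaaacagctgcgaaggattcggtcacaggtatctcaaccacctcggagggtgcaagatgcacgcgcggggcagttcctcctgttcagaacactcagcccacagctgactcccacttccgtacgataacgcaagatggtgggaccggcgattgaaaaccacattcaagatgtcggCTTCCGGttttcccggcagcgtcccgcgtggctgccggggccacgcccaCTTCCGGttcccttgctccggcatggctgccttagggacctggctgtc
Mrpl14 (chr17:45686099-45686398, plus strand): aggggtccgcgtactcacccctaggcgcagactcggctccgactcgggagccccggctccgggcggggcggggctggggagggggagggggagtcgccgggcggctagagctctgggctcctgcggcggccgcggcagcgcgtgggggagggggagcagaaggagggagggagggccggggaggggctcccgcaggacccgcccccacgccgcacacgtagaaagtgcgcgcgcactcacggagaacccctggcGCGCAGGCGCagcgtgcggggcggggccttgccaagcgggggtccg
A match is a description of the letters and does not show a bound factor. The 41 members with any match had a median difference of 0.15 and the 24 without had 0.14, and 36 and 22 of them lay above 0. By motif, the medians with and without a match were 0.10 and 0.15 for NRF1, 0.14 and 0.14 for ETS and 0.16 and 0.14 for YY1. Whether these medians differ was not tested.

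The comparison of transgenic with wild-type fat asks here whether the nuclear genes of the organelle's ribosome differed between them. Mrpl54 and Mrpl55, proteins of the large subunit with no bacterial counterpart, and Mrps15, the counterpart of the bacterial rRNA-binding protein S15, rose in transgenic fat, by 1.34-fold, 1.28-fold and 1.24-fold. No member fell. Differences of the others were mostly small and positive: 65 of the 74 members lay above 0, of which 44 were Mrpl genes (of 46) and 21 Mrps genes (of 28). The median difference was 0.16 for Mrpl genes and 0.14 for Mrps genes, beside 0.02 for all genes tested.

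The 2 Mrpl genes and 1 Mrps gene that rose (limma, Benjamini-Hochberg adjusted p at most 0.05) made up 4.35% and 3.57% of their subunits, where 2.07% of all genes tested were called higher and 1.27% lower. So few calls lie near that background, and the count is not a result about the members. At an unadjusted p of 0.05 by limma, 19 Mrpl and 8 Mrps genes were higher and 0 were lower, beside 11.2% of all genes higher and 9.42% lower. The groups did not overlap, with all 4 transgenic arrays above all 4 wild-type arrays, for 14 Mrpl and 5 Mrps genes (30.4% and 17.9%), beside 8.24% of all genes, and for 0 members in the opposite direction (5.73% of all genes). Since 55.3% of all genes lay above 0, the share of members above 0 (87.8%) is also to be read against that value. No test was made of these shares.

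**Figure D1:**
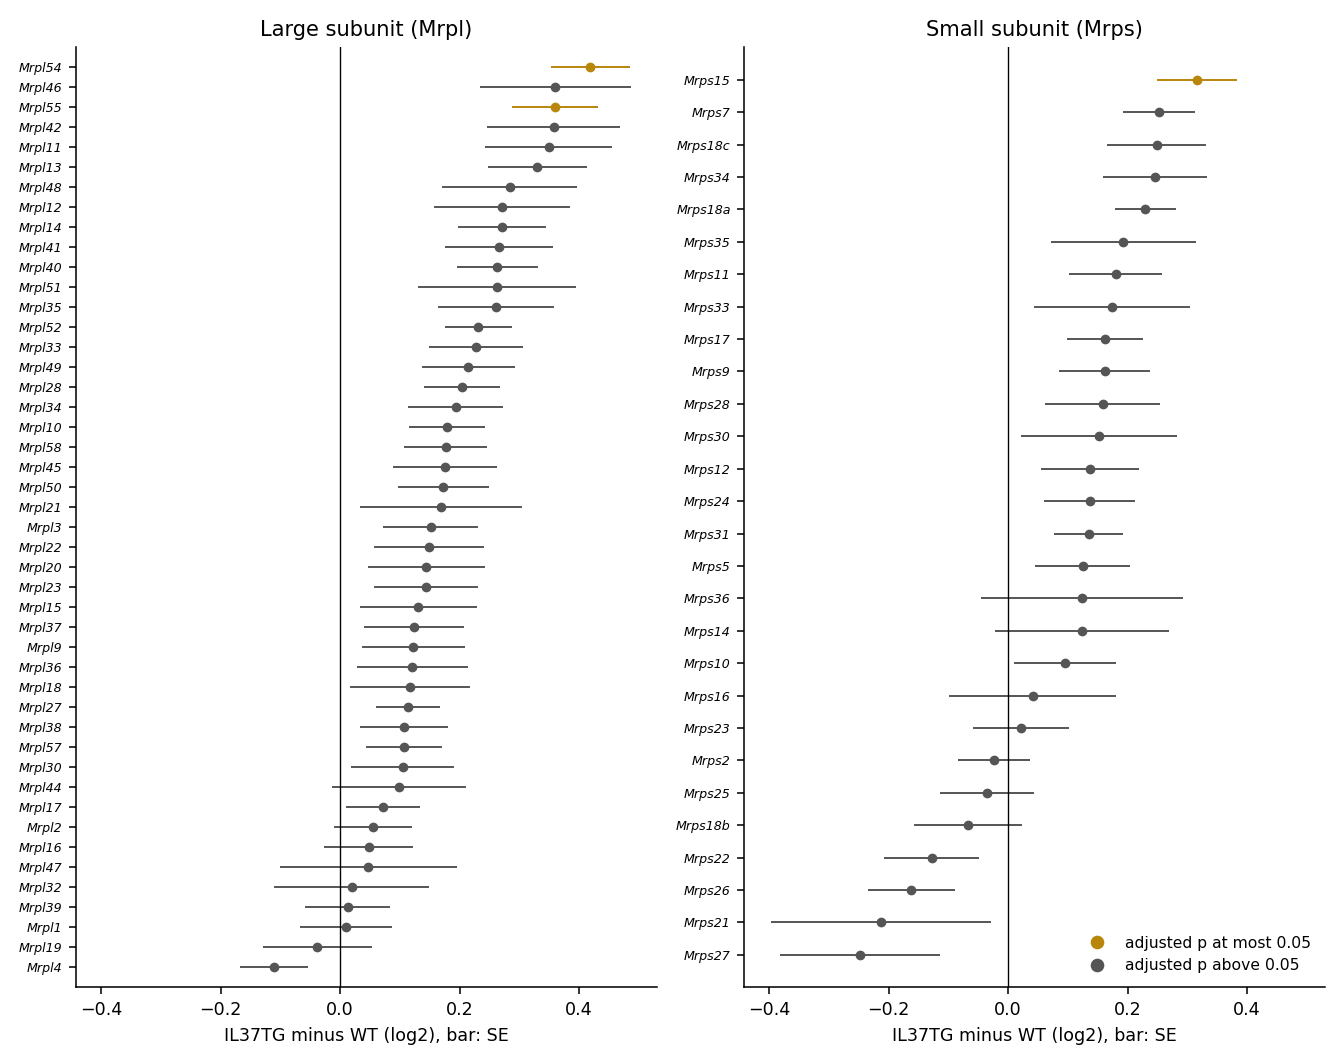
Difference in log2 level (IL37TG minus WT, 4 arrays each) of the 46 Mrpl and 28 Mrps genes, each with its standard error (bar), ordered by size. Gold points mark the 3 genes with an adjusted p at most 0.05; 2 Mrpl and 7 Mrps genes lie left of 0.

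Mrpl54 was measured at 9.08, 9.27, 9.16 and 9.20 in wild-type replicates 1 to 4 and at 9.71, 9.57, 9.61 and 9.50 in the transgenic ones. Its groups lay apart by more than the range within either, and the difference was 0.42 (SE 0.07, limma adjusted p = 0.0202). The call was lost without WT replicate 1 (adjusted p = 0.0632), WT replicate 4 (0.0728), IL37TG replicate 1 (0.0534) or IL37TG replicate 2 (0.0585), with the difference between 0.38 and 0.45 whichever array was left out. Mrpl55 read 7.72, 7.72, 7.77 and 7.58 in wild-type and 8.14, 7.90, 8.07 and 8.12 in transgenic fat. Transgenic replicate 2 was the lowest of its group and still above every wild-type array (difference 0.36, SE 0.07, limma adjusted p = 0.0418). This call held only without WT replicate 3 (adjusted p = 0.0336) or IL37TG replicate 2 (0.0490), and was lost without WT replicates 1 (0.112), 2 (0.0940) or 4 (0.124) and without IL37TG replicates 1 (0.0959), 3 (0.0783) or 4 (0.0908).

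Mrps15 stood at 9.69, 9.81, 9.67 and 9.62 in wild-type and at 10.12, 10.05, 9.95 and 9.93 in transgenic fat. The groups did not overlap, and the difference was 0.32 (SE 0.07, limma adjusted p = 0.0469). It was the closest of the calls to the threshold and was lost on removal of any of the 8 arrays (limma adjusted p from 0.0595 to 0.136). Fewer genes of any kind were called without most arrays: the share of all genes called higher was 0.329%, 0.531%, 2.76% and 0.266% without WT replicates 1 to 4 and 0.68%, 0.393%, 1.38% and 0.786% without IL37TG replicates 1 to 4, beside 0, 1, 2 and 0 and then 0, 1, 1 and 1 of the members. Other settings of the test gave more calls, both of members and of all genes: 9 members (7.87% of all genes higher) among genes at or above the median gene, 9 (3.85%) with array weights and 7 (2.68%) with a trended and robust prior.

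**Figure D2:**
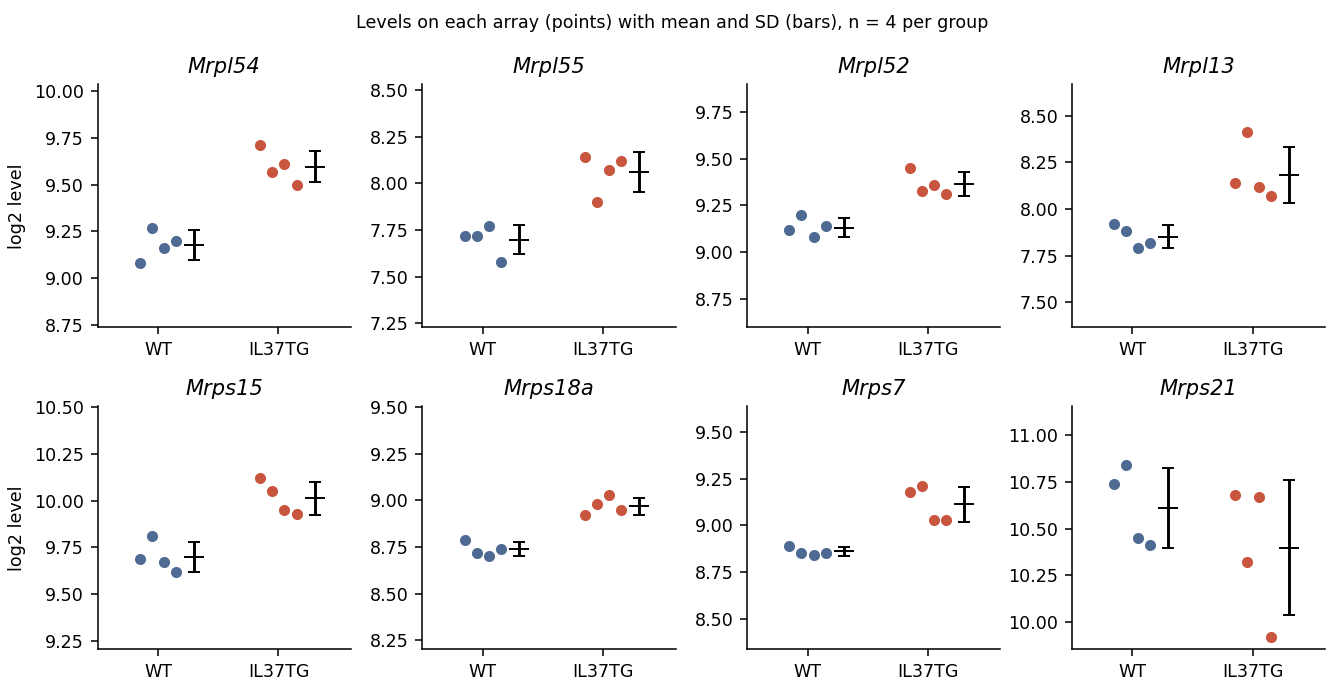
Log2 levels of 8 members on each array (points, replicates 1 to 4 from left to right) with group mean and SD (n = 4 per group); every panel spans 1.3 log2 units. In the first 7 panels all transgenic arrays lie above all wild-type arrays, and for Mrps21 the groups overlap.

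Among the large subunit genes with a counterpart in bacteria, 0 of 28 passed (limma) and 26 lay above 0, with a median difference of 0.14; 9 were higher at an unadjusted p of 0.05. Mrpl13, whose bacterial relative binds early in assembly, read 7.92, 7.88, 7.79 and 7.82 in wild-type and 8.14, 8.41, 8.12 and 8.07 in transgenic fat (difference 0.33, SE 0.08, limma adjusted p = 0.0718). Replicate 2 was its highest transgenic array, and its groups did not overlap. Mrpl11, a protein of the stalk base where translation factors dock, was at 8.48, 8.36, 8.53 and 8.40 against 8.77, 9.10, 8.71 and 8.60 (0.35, SE 0.11, limma adjusted p = 0.115). Mrpl14 differed by 0.27 (SE 0.07, limma adjusted p = 0.0871) and Mrpl28 by 0.20 (SE 0.06, limma adjusted p = 0.121), both with groups that did not overlap. Mrpl34 differed by 0.19 and overlapped. The smallest values of the subunit belonged to this class too. Mrpl4, which in bacteria reaches into the exit tunnel for the new protein, had a mean of 9.25 ± 0.05 against 9.14 ± 0.07 in transgenic fat (SD, n = 4; difference -0.11). Mrpl19 differed by -0.04, which became 0.17 with the array letter as a block and 0.02 without IL37TG replicate 4. The letter block compares IL37TG replicate 1 with WT replicates 3 and 4 alone, since no other letter held both groups. Mrpl1, of the stalk beside the exit site for tRNA, differed by 0.01, which became -0.06 without IL37TG replicate 2.

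Large subunit proteins found only in mitochondria had 18 members measured, all 18 above 0 in the difference (55.3% of all genes), with a median of 0.22. Past the test were 2 (Mrpl54 and Mrpl55), or 11.1%, beside 2.07% of all genes called higher. At an unadjusted p of 0.05 by limma 10 were higher and 0 lower (55.6% higher, beside 11.2% of all genes). Mrpl52 was at 9.12, 9.20, 9.08 and 9.14 in wild-type and at 9.45, 9.33, 9.36 and 9.31 in transgenic fat, without overlap (0.23, SE 0.06, limma adjusted p = 0.0651). Mrpl40 read 10.04, 10.02, 10.12 and 10.03 against 10.22, 10.45, 10.22 and 10.37, also without overlap (0.26, SE 0.07, limma adjusted p = 0.0769). Mrpl44, a protein with a fold related to ribonuclease III, lay at 6.01 ± 0.15 and 6.11 ± 0.19 (SD, n = 4), within the spread of its groups.

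In the small subunit, 16 members had a bacterial counterpart, with 13 above 0, 1 past the test (Mrps15) and a median difference of 0.14. Mrps7, a protein of the subunit's head, was tight in wild-type fat at 8.89, 8.85, 8.84 and 8.85 and stood at 9.18, 9.21, 9.03 and 9.03 in transgenic fat. Its transgenic arrays formed a higher and a lower pair, both above wild type (0.25, SE 0.06, limma adjusted p = 0.0636). Mammals have 3 relatives of bacterial S18. Mrps18a, which despite its name sits in the large subunit, was measured at 8.79, 8.72, 8.70 and 8.74 against 8.92, 8.98, 9.03 and 8.95, with no overlap (0.23, SE 0.05, limma adjusted p = 0.0510). Mrps18c differed by 0.25 (SE 0.08, limma adjusted p = 0.140) and Mrps18b by -0.07 (SE 0.09, limma adjusted p = 0.715), and both had overlapping groups. Mrps18b stood at 0.08 with the array letter as a block. Mrps17 differed by 0.16 and Mrps12, of the site where codons are read, by 0.14. Mrps21 read 10.74, 10.84, 10.45 and 10.41 in wild-type and 10.68, 10.32, 10.67 and 9.92 in transgenic fat. Its groups overlapped widely, transgenic replicate 4 was the lowest, and the difference of -0.21 (SE 0.18) was -0.05 without that array and 0.25 with the array letter as a block.

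Of the 12 small subunit members found only in mitochondria, 0 passed (limma, with 2 higher and 0 lower at an unadjusted p of 0.05). Of them 8 lay above 0, with a median of 0.13. Their mean ran from 7.57 to 7.59 on wild-type arrays and was 7.69, 7.85, 7.45 and 7.54 on transgenic replicates 1 to 4. Transgenic replicates 3 and 4 thus lay below every wild-type array for this class. Mrps34 differed by 0.25 (SE 0.09, limma adjusted p = 0.160) and Mrps31 by 0.13 (SE 0.06, limma adjusted p = 0.235). Mrps27, a protein of the RNA-binding pentatricopeptide repeat family, read 6.90, 6.93, 7.03 and 7.01 in wild-type and 6.97, 6.94, 6.58 and 6.37 in transgenic fat. Transgenic replicates 1 and 2 lay among the wild-type values and replicates 3 and 4 below them (-0.25, SE 0.13, limma adjusted p = 0.339). The difference was -0.13 without IL37TG replicate 4 and -0.05 with the array letter as a block. Mrps26 differed by -0.16 (SE 0.07, limma adjusted p = 0.260), which became 0.02 with the array letter as a block. Placing Mrps18a and Mrps30 with the large subunit, where both proteins sit, left medians of 0.16 (48 genes) and 0.13 (26 genes). Mrps36, since assigned to the 2-oxoglutarate dehydrogenase complex, differed by 0.12 and overlapped, with values from -0.03 to 0.26 when 1 array was left out.

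The transgenic arrays differed among themselves more than the wild-type arrays did. The mean over the 46 Mrpl genes was 8.32, 8.31, 8.32 and 8.28 in wild-type replicates 1 to 4 and 8.51, 8.61, 8.37 and 8.41 in the transgenic ones, and the SD was 0.02 over the wild-type arrays and 0.11 over the transgenic ones (n = 4 each). For the 28 Mrps genes the means were 7.95, 7.95, 7.91 and 7.90 against 8.08, 8.17, 7.89 and 7.93. Transgenic replicates 1 and 2 were thus high for both subunits, whereas replicates 3 and 4 were nearer to wild type for Mrpl genes. For Mrps genes replicate 4 lay among the wild-type values and replicate 3 just below the lowest of them. Of the 74 members, 60 (81.1%) had a larger SD in the transgenic group, as did 54.7% of all genes.

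Transgenic replicate 2 gave the highest of the 8 values for 50 of the 74 members and replicate 1 for 14, whereas over all genes these arrays were highest for 3231 and 2358 of 18820. A value above the gene's own median over the arrays was seen for 94.6% of the members on transgenic replicate 2 and 91.9% on replicate 1, but for 59.5% on replicate 4 and 41.9% on replicate 3, and for 14.9% to 36.5% on the wild-type arrays. Over all genes this share was 59.0%, 56.4%, 41.8% and 52.2% on those 4 transgenic arrays in the same order. Without IL37TG replicate 2 the median difference fell from 0.16 to 0.11 for Mrpl genes and from 0.14 to 0.06 for Mrps genes, and 58 members lay above 0.

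**Figure D3:**
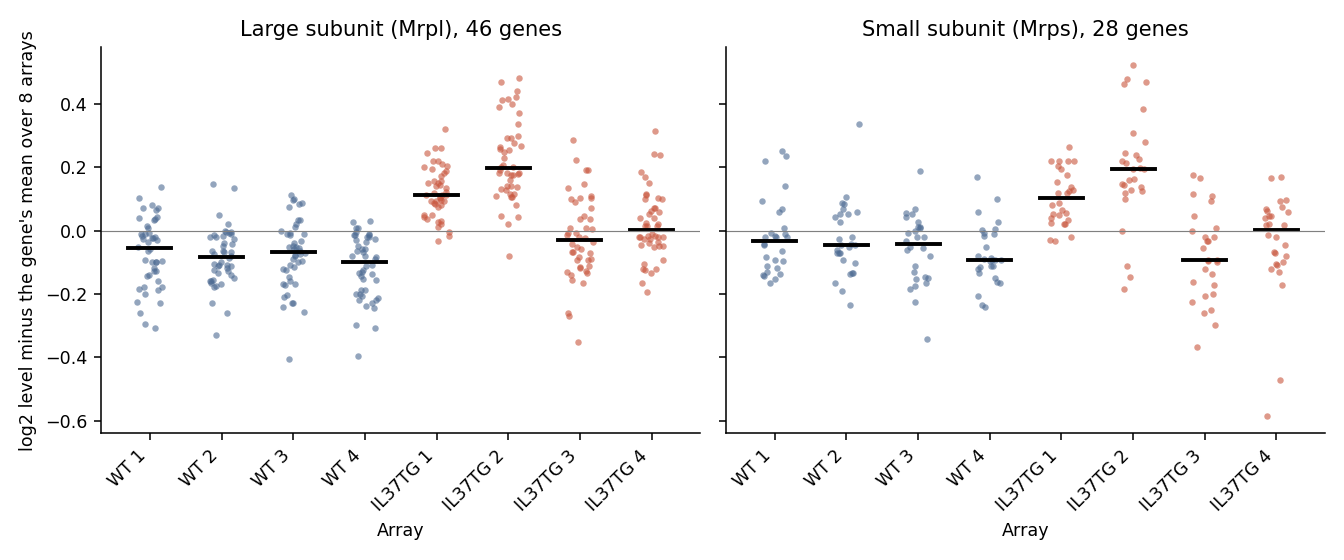
Log2 level of each member on each array minus the gene's mean over the 8 arrays (points), with the median over genes (black line), for 46 Mrpl and 28 Mrps genes. The medians on IL37TG replicates 1 and 2 are the highest in both panels, and that of IL37TG replicate 3 for Mrps genes (-0.09) lies among those of the wild-type arrays (-0.10 to -0.03).

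Array names carry a letter and a number whose meaning the labels do not give. Number 5 held WT replicate 3 and IL37TG replicate 2, and there the median difference was 0.26 for Mrpl and 0.25 for Mrps genes, with 45 of 46 and 24 of 28 above 0. Number 9 held WT replicate 2 and IL37TG replicates 1 and 4, with medians of 0.14 and 0.08. Number 7 held WT replicates 1 and 4 and IL37TG replicate 3, and the medians were 0.06 and -0.04, with 29 of 46 and 13 of 28 above 0. Letter G held WT replicates 3 and 4 and IL37TG replicate 1, with medians of 0.23 and 0.17. No other letter held arrays of both groups, so each difference with the letter as a block is that within letter G. Over all genes the medians were 0.06, 0.00, 0.01 and 0.04 for numbers 5, 9 and 7 and letter G. With the letter or the number as a block 0 members passed (limma; 0.0531% and 0.234% of all genes higher), and at an unadjusted p of 0.05 the letter block left 4 Mrpl and 2 Mrps genes higher and the number block 13 and 5. Mrpl54, Mrpl55 and Mrps15 then differed by 0.53, 0.46 and 0.48 with the letter (limma adjusted p = 0.169, 0.280 and 0.179) and by 0.40, 0.34 and 0.29 with the number (0.0838, 0.124 and 0.139).

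Some markers of macrophages and of fat cells moved with the groups. Of 14 macrophage markers 3 fell (Trem2, Fcgr1 and Cx3cr1), Cd163 rose, and 12 lay below 0. The mean of the list ran from 8.97 to 9.89 on wild-type and from 8.65 to 9.06 on transgenic arrays. Of 12 measured fat cell markers Slc2a4 and Adipoq rose and 10 lay above 0, and the mean of that list ran from 11.93 to 12.07 and from 12.12 to 12.20. These marker calls were held in few of the 8 fits that leave out 1 array: Trem2, Fcgr1 and Adipoq in 1 each (that without WT replicate 3), Cx3cr1 in 2, and Cd163 and Slc2a4 in 4 each. In whole tissue, fewer cells of a type and less RNA per cell cannot be told apart. WT replicate 3 had the lowest wild-type macrophage mean (8.97, inside the transgenic range), while its Mrpl mean of 8.32 was below all transgenic arrays. Its Mrps mean of 7.91 was above transgenic replicate 3 (7.89) and below transgenic replicates 1, 2 and 4 (8.08, 8.17 and 7.93). Transgenic replicates 1, 2 and 3 had macrophage means of 9.01, 9.06 and 9.04 and Mrpl means of 8.51, 8.61 and 8.37. The fat cell mean of transgenic replicate 1 (12.12) was the lowest of its group. Both red blood cell markers measured, Alas2 and Slc4a1, were highest on transgenic replicate 4, with a list mean of 8.02 there, from 6.29 to 7.21 on wild-type and from 6.86 to 7.11 on the other transgenic arrays. Of the T and B cell, endothelial, progenitor, mesothelial, brown fat and red blood cell markers 0 passed (limma; 3 were higher and 4 lower at an unadjusted p of 0.05). All 6 mesothelial markers lay above 0 (median 0.35), and the mean of that list was 8.12, 7.58, 8.34 and 8.50 on wild-type and 8.61, 8.66, 8.00 and 8.62 on transgenic arrays. Transgenic replicates 1, 2 and 4 were above every wild-type array in it and replicate 3 was among them. Of 8 endothelial markers 7 lay above 0 (median 0.13), with list means from 9.78 to 10.01 on wild-type and from 9.87 to 10.12 on transgenic arrays. What part these cell types have in the differences of the members was not tested.

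The genes that build, feed and steer the mitochondrial ribosome gave few calls. Of 19 assembly factors measured, Mtg1, a GTPase of large subunit assembly, rose: it read 6.97, 7.14, 7.08 and 6.83 in wild-type and 7.66, 7.78, 7.43 and 7.67 in transgenic fat (0.63, SE 0.10, limma adjusted p = 0.0192). Its call was lost without WT replicate 1 (adjusted p = 0.0623), WT replicate 4 (0.0653), IL37TG replicate 1 (0.0539) or IL37TG replicate 2 (0.0570). The assembly factor Mpv17l2 differed by 0.32 (limma adjusted p = 0.0709) and Mrm1, which methylates the large rRNA, by -0.20 (limma adjusted p = 0.208). Among 13 genes for the copying and reading of mitochondrial DNA and the processing of its transcripts, Hsd17b10, a subunit of mitochondrial ribonuclease P and an enzyme of isoleucine breakdown, rose from 10.15 ± 0.05 to 10.64 ± 0.09 (SD, n = 4; 0.49, SE 0.06, limma adjusted p = 0.00910) and passed whichever array was left out. With the array number as a block, the limma adjusted p was 0.0473 for Mtg1 and 0.0493 for Hsd17b10. With the array letter as a block these genes differed by 0.71 and 0.54. That block has 1 transgenic array to compare, so it cannot show whether the calls hold. Tfb2m, a transcription initiation factor, differed by 0.27 (limma adjusted p = 0.0880) and Lrpprc, which stabilises mitochondrial mRNA, by -0.10 (limma adjusted p = 0.323). Medians of the differences were 0.09 for assembly factors and 0.04 for these 13 genes.

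By limma, 0 of 12 translation factors, 0 of 19 tRNA charging enzymes and 0 of 4 ribosomal proteins with other names passed; at an unadjusted p of 0.05, 1, 4 and 1 were higher and 0 lower. Their medians were 0.06, 0.07 and 0.08. Mrrf, which splits the ribosome after each round, read 9.93, 10.06, 9.88 and 9.91 against 10.38, 10.23, 10.15 and 10.22, without overlap (0.30, SE 0.07, limma adjusted p = 0.0591). Mtfmt, which formylates the starting methionine, differed by 0.17, and the charging enzymes Nars2 and Fars2 by 0.20 and 0.19. Chchd1 and Dap3, which are small subunit proteins outside the naming rule, differed by 0.24 and 0.16. Regulators of mitochondrial biogenesis lay the other way, with 7 of 9 below 0, 0 past the test (limma; 3 lower at an unadjusted p of 0.05) and a median of -0.08. The coactivator gene Ppargc1a read 7.50, 6.79, 8.02 and 7.49 in wild-type and 6.65, 7.0, 6.87 and 6.98 in transgenic fat (-0.58, SE 0.23, limma adjusted p = 0.206), and its relative Pprc1 differed by -0.37 (SE 0.11, limma adjusted p = 0.114). The genes of the mitochondrial genome itself, which these ribosomes translate, could not be followed: of 15 listed, 0 were among the genes tested.

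Nuclear genes of the respiratory chain and cytosolic ribosomal proteins give the members a setting. Of 80 respiratory chain genes 9 rose (11.2%, beside 2.07% of all genes at the same adjusted threshold). Above 0 lay 73 (91.2%, beside 55.3% of all genes), and the median was 0.16. Their mean was 9.65, 9.54, 9.69 and 9.58 on the wild-type and 9.79, 9.85, 9.71 and 9.78 on the transgenic arrays, so that IL37TG replicate 3 was again the lowest and replicate 2 the highest of its group, while the SD over transgenic arrays was 0.06, beside 0.11 for Mrpl genes. Of 73 cytosolic ribosomal genes 0 passed (limma; 13 higher and 0 lower at an unadjusted p of 0.05), 56 lay above 0 and the median was 0.06. The difference between these lists and the members was not tested.

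**Figure D4:**
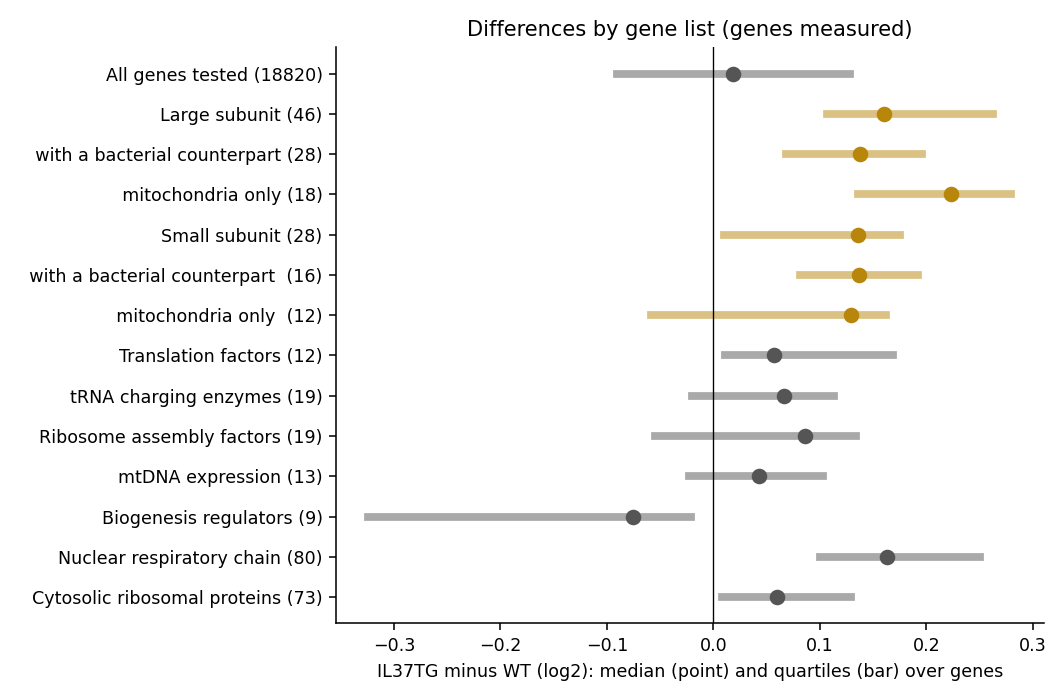
Median (point) and quartiles (bar) of the difference in log2 level, IL37TG minus WT, over the genes of each list; the number of genes measured is in brackets, and gold marks the mitochondrial ribosomal proteins. The large subunit proteins found only in mitochondria have a median of 0.22, all genes tested 0.02 and the biogenesis regulators -0.08.

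Many members start back to back with another gene. In the RefSeq windows, 23 of 65 members (35.38%) had a protein-coding gene on the opposite strand that starts at most 1000 bases upstream, as did 8.93% of 14480 protein-coding genes tested. Mrpl46 and Mrps11 are such a pair, 42 bases apart, and differed by 0.36 and 0.18. In the other 20 pairs whose neighbour was measured, 18 of the members lay above 0 (median 0.13), whereas 7 of the neighbours did and 13 lay below (median -0.06). By limma 0 of the 22 neighbours passed. Neighbours below 0 included Ska3, a mitotic spindle gene beside Mrpl57 (-0.80), Eme1 beside Mrpl27 (-0.50) and Ncapd2, a condensin gene beside Mrpl51 (-0.41), with limma adjusted p of 0.173, 0.112 and 0.0871. Those 3 neighbours were picked out after their values were seen.

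**Figure D5:**
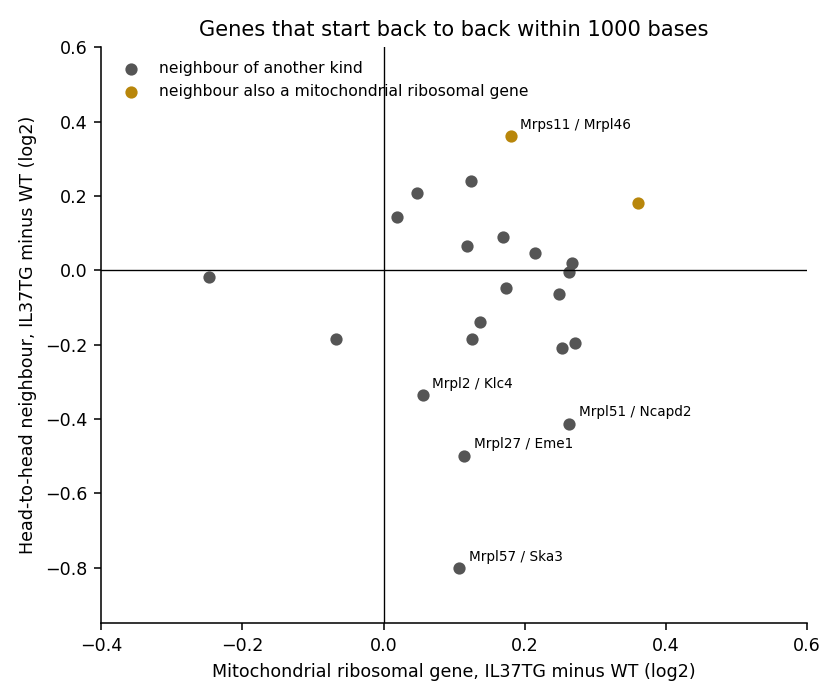
Difference in log2 level (IL37TG minus WT) of members (horizontal) and of the gene that starts back to back with each within 1000 bases (vertical). Gold points are the pair Mrpl46 and Mrps11, each plotted as the other's neighbour; most points lie right of 0, and of the 20 grey points 13 lie below 0.

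Probe sets bore on some of these values. Of 12 members with several probe sets, 10 had all of them on the same side of 0, and Mrpl10 (0.18 and -0.05) and Mrpl42 (0.36 and -0.03) did not. The probe set at -0.05 for Mrpl10 had an identifier among those of genes on another chromosome. That at -0.03 for Mrpl42 had a mean of 4.19, below the lower quartile of gene means. The kept probe sets of Mrpl27, Mrpl41, Mrpl48, Mrpl51, Mrps10, Mrps33 and Mrps36 had identifiers that fall among those of genes on another chromosome, and whether they read a copy of the gene elsewhere was not tested, so their values are uncertain. Probe sets in the order of the gene's own chromosome gave 0.09 for Mrpl27, 0.20 for Mrpl51 and 0.18 for Mrps33, beside 0.11, 0.26 and 0.17 for the kept ones. Mrps10 had such probe sets at 0.20 and at 0.06, beside 0.10 for the kept one. For that kept Mrps10 probe set only 7 of the nearest identifiers were on the other chromosome, beside 17 to 20 for the other kept ones named. No member's mean lay under the lower quartile of gene means (4.49), and 5 lay below the median gene (6.74).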

How the data were processed

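Single-colour arrays were deposited as log2 values, 1 per probe set; per the submitters' processing notes the authors made them with RMA, which corrects background, equalises arrays by quantiles and summarises probes. Quantile scaling hides a shift shared by most genes, and dim probe sets understate differences. The sources used here give no RMA settings. Array medians lay between 5.97 and 6.04, and the number of arrays limits the precision.

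Of 35556 probe sets, 21218 had 1 symbol, 1881 several and 12457 none in GEO's platform annotation; 21185 were matched through the Entrez identifier to GRCm38.p6. The probe set with the highest mean was kept for each of 18820 genes. The test was limma 3.58.1 (R 4.3.3; lmFit, eBayes, two-sided, no filter, Benjamini-Hochberg over all genes, threshold 0.05), tested on simulated data. In that simulation 4% of genes given a log2 change of 0.25 were called, 50% of those given 0.5 and 88% of those given 1. The members, lists and rule for named genes were chosen with earlier results of these data known. The rule took members past the threshold, in each subunit the 6 next by p, the 3 most negative and those with the highest and lowest mean, and from other lists those past the threshold and the 2 next. Members named beyond it (such as Mrpl42, Mrpl46, Mrps11 and Mrps18b) were chosen after their values were seen. Position of a probe set was read from the 10 neighbours on each side in identifier order, by which 94.71% of probe sets matched their gene's chromosome. Same-numbered replicates did not pair (correlations of deviations 0.06 to 0.10). Figures were drawn with matplotlib 3.10.9.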

Additional observations from a re-analysis of the deposited data

Results flagged for a closer look

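A single array lay far from the rest of its group in 6 of 158 groups of 4 tested over named genes and lists (3.80%), where chance gives about 1 in 20. Among the members, IL37TG replicate 3 was the lowest of its group for Mrpl28 (7.81). WT replicate 1 was the highest of its group for Mrps7 (8.89, with the others from 8.84 to 8.85). Outside them, WT replicate 3 stood apart for Tfb2m (9.23, highest) and for Atp5e, the epsilon subunit of ATP synthase (8.67, lowest). In list means, IL37TG replicate 4 had a low macrophage mean (8.65) and IL37TG replicate 3 a low mesothelial mean (8.00).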

How the results depend on the processing

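Over the alternatives the median difference stayed above 0 for both subunits: from 0.11 to 0.23 for Mrpl genes and from 0.06 to 0.18 for Mrps genes, both lowest without IL37TG replicate 2. Numbers past the threshold (2 Mrpl and 1 Mrps) were 1 and 0 after median centring, 6 and 3 among genes at or above the median gene, 4 and 3 with a trended and robust prior, and 6 and 3 with array weights. For Mrps genes the number was 2 after a second quantile normalisation, 3 among genes at or above the 25th percentile and 0 with the dimmest probe set (limma; 8 higher at an unadjusted p of 0.05). With the replicate block 0 and 0 passed by limma (17 and 5 higher and 0 and 1 lower at an unadjusted p of 0.05). With the array number as a block 0 and 0 passed by limma too. The letter block has 1 transgenic array to compare, so its number is not given. Leaving out 1 array, 0 to 2 Mrpl genes and 0 Mrps genes passed (at an unadjusted p of 0.05, 12 to 23 and 4 to 10 were higher, 0 to 1 and 0 to 2 lower). The brightest probe set in its own chromosome's order, chosen after the data were seen, left the same 3 genes past the threshold. The filters test fewer genes and leaving out an array uses fewer samples; for the other settings the cause was not tested.

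Over all 74 members the sign turned for 9 with the letter block and for 10 on leaving out 1 array, each with an adjusted p of 0.26 or more in the main comparison. Values with the letter block rest on IL37TG replicate 1 against WT replicates 3 and 4 alone. They cannot show whether a sign depends on the letter. Among the genes named by rule, sign changes were seen for Mrpl19 (0.17 with the letter block, -0.085 to 0.020 leaving out 1 array), Mrpl1 (-0.012 with the letter block, -0.059 to 0.052 leaving out 1 array) and Mrm1 (0.11 with the dimmest probe set, 0.026 with the letter block). With the letter block alone, Mrps21 became 0.25, Mrps26 0.020, Vwf -0.10, Emcn -0.082 and Slc4a1 -0.033. These genes too had an adjusted p above 0.05.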

Other observations

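Mrpl24, Mrpl43, Mrpl53 and Mrps6 were read by probe sets that also carry the symbol of a second gene. The probe set of Mrpl24 and Rrnad1 stood at 8.71 ± 0.10 in WT and at 9.12 ± 0.12 in IL37TG (SD, n = 4; difference 0.41). That of Mrpl43 and Sema4g differed by 0.04, that of Mrpl53 and Ccdc142 by 0.05 and that of Mrps6 and Slc5a3 by -0.12. Some members also had shared probe sets beside their own. Those of Mrpl41 and Dph7 differed by 0.07 and 0.05, and that of Mrpl19 and Gcfc2 by -0.24. That of Mrpl48 and Rab6a differed by 0.24 and that of Mrps36 and Sgk3 by 0.19. The kept probe sets of Mrpl41, Mrpl19, Mrpl48 and Mrps36 gave 0.27, -0.04, 0.28 and 0.12. Which gene of each pair the shared values come from was not tested.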
